A study of Rattus norvegicus with 8 samples.

Results

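The interferon response genes are 36 genes that cells are known to switch on after interferon, taken from a list of symbols with no threshold on their values. The list was chosen with earlier results of these data known, so its counts beside all genes are a description. They were matched to array probes through each probe's RefSeq accession. Of the 36, 34 had a probe, 33 were bright enough to test, and those 33 were part of 21416 genes tested. Ddx58, the RNA sensor RIG-I, and Xaf1, an apoptosis factor, matched no probe. The probe of Ifit1, which binds foreign RNA caps, was well above background on 3 of 8 arrays and was not tested.

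The series compared kidneys of male SD rats, aged 10 weeks, by single-colour gene expression arrays of total RNA. The Control group (n = 4) received 0.5% methylcellulose for 4 weeks. The APL group (n = 4) received APL at 150 mg/kg for 4 weeks, which is read as allopurinol because the series title names that drug and a renal fibrosis model. The title speaks of renal tubules and the tissue label of kidney, and no label says that replicates are separate animals, so p-values measure the spread between these samples. Each value below is the log2 of a probe's signal over the 75th percentile of its array, and values for a group are given for replicates 1 to 4 in turn. A gene was called when limma's adjusted p was under 0.05 over all genes tested.

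Interferons are secreted proteins that warn cells of infection or damage. Type I and type III interferons act mainly through a complex holding Stat2 and Irf9 that binds interferon-stimulated response elements, and so raise antiviral effectors such as the Mx, Oas and Ifit proteins. Interferon gamma, the type II interferon made by T and NK cells, acts through gamma-activated sites and strongly raises Irf1, the guanylate-binding proteins and the immunity-related GTPases. The gene sets overlap, since most of these genes respond to some degree to both. In kidney, tubule cells, endothelium and resident macrophages can all respond.

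Of the 33 members tested, 14 rose in APL and 2 fell. In bulk tissue, fewer cells of a type and less RNA per cell cannot be told apart. Over all genes tested, 11.9% were called higher and 11.5% were called lower, 23.5% in all. The median log2 fold change of the members was 1.52, against -0.03 over all genes, and 28 of the 33 had a positive difference. In 13 members every APL sample lay above every Control sample, and in 3 every APL sample lay below. Groups did not overlap in 29.9% of all genes, with APL above in 14% and below in 15.9%. The filter required a probe to be well above background on at least 4 of 8 arrays, and Dtx3l passed it through the APL arrays alone. Among the 21 members well above background on all 8 arrays, 9 rose and 2 fell, with a median log2 fold change of 1.18. With that filter 1988 of 17536 genes were called higher and 2417 lower. The count of members that rose was 9 without APL replicate 2, 3 or 4, and 8 with normexp background correction and 75th percentile scaling. Calls also became fewer over all 21416 genes, from 2554 higher to 1623, 1931 and 1606 without those replicates in turn. With that normexp setting 1040 genes were called higher.

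**Figure D1:**
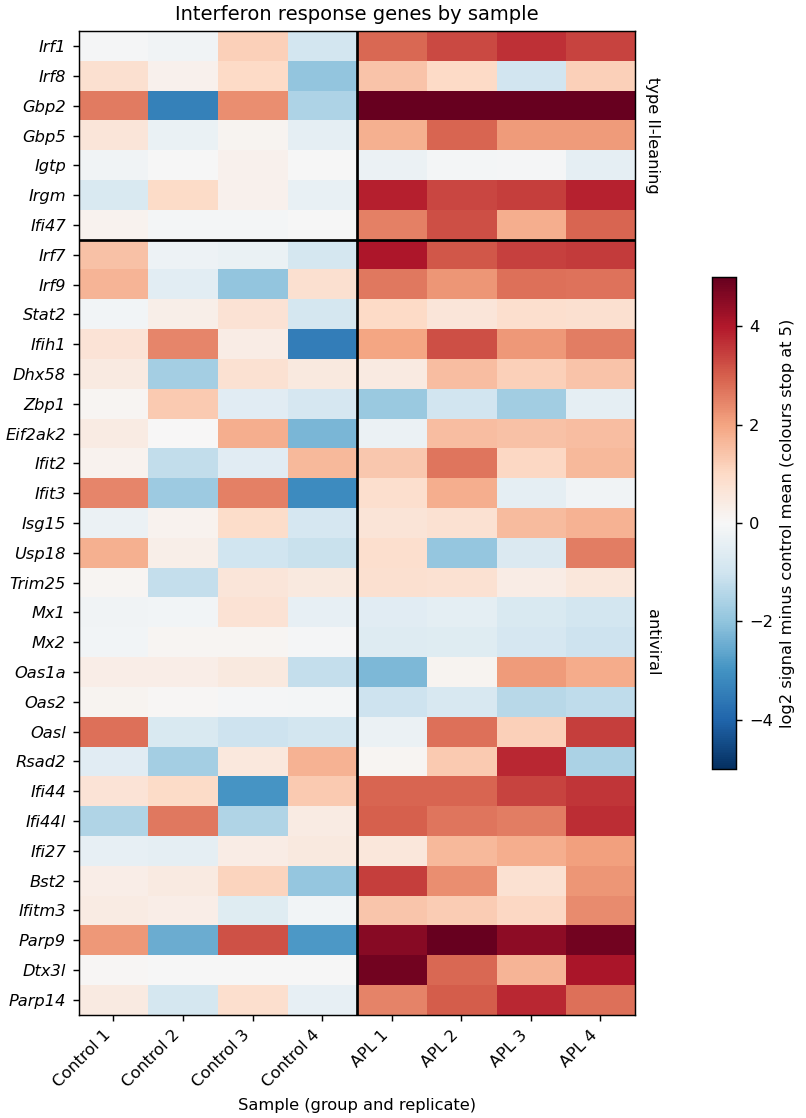
Each row is a tested member and each column a sample. Colour gives the log2 signal minus that gene's control mean, with colours stopping at 5 in either direction. Gbp2, Irgm, Irf1 and Irf7 are red in all 4 APL samples, while Oas2 and Mx2 are pale blue there, and rows such as Ifit3 and Usp18 show no division between the groups.

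The members were set side by side as a type II-leaning class (Irf1, Irf8, Gbp2, Gbp5, Igtp, Irgm and Ifi47) and an antiviral class (the other 29). Of 7 type II-leaning members, 5 rose and none fell, with a median log2 fold change of 2.62. Of 26 antiviral members tested, 9 rose and 2 fell, with a median of 1.35. The difference of the medians was 1.27, and it was 1.63 on slide 1, which holds replicates 1 and 2 of both groups, and 0.61 on slide 2, which holds replicates 3 and 4. With normexp background correction it shrank to 0.20 with 75th percentile scaling and to 0.06 with quantile normalization. This difference is a description and carries no test.

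**Figure D2:**
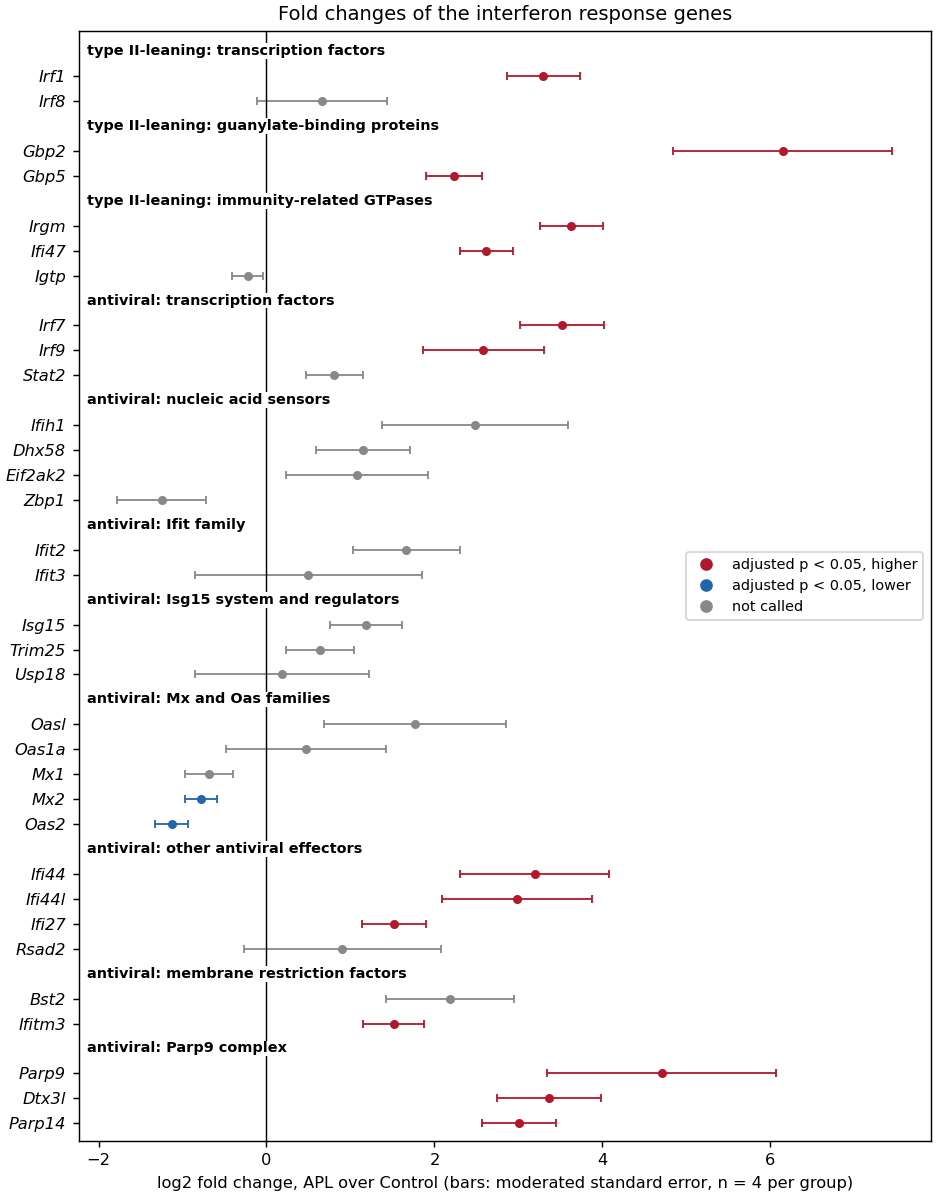
Points are log2 fold changes of APL over Control and bars are moderated standard errors (n = 4 per group), grouped by the role of each gene. The called higher genes run from Ifitm3 at 1.51 to Gbp2 at 6.14, and the Mx and Oas families hold both called lower genes.

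The promoters are shown because they carry the letters by which the factors of this pathway are known to act. RefSeq promoter windows of GRCr8, from 250 bases before to 50 bases after each gene's start, were found for 27 of the 36 members. The members without one were Ddx58, Dhx58, Zbp1, Ifit1, Ifit2, Isg15, Usp18, Mx2 and Oas2. The core of the interferon-stimulated response element, searched as GAAA, any 2 bases and GAAA again on both strands, was in 18 of the 27 windows (66.7%) and in 3.92% of all 33469 windows of the same length. The core of the gamma-activated site, searched as TTCNNNGAA on both strands, was in 11 (40.7%) and in 8.87% of all windows. The 2 patterns can share letters, and both were in 7 member windows (25.9%) and in 0.514% of all windows. A match describes letters only and shows neither binding nor a cause.

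Matches were found in members of either call. The response element was in 10 of 14 windows of genes that rose and in 7 of 12 windows of tested genes that were not called. The gamma-activated site was in 7 of those 14 and in 4 of those 12. By class, the response element was in 4 of 7 type II-leaning and 14 of 20 antiviral windows, and the gamma-activated site in 5 of 7 and 6 of 20. The 250 bases before the gene start follow for 6 genes, in lower case with both patterns in capitals, read 5′ to 3′ on the strand of the gene. Irf1, Gbp2 and Ifi47 are type II-leaning genes that rose, Irf7 is an antiviral factor that rose, and Oas1a and Ifit3 carry the response element and were not called.
Irf1 (chr10:38417685-38417934, plus strand): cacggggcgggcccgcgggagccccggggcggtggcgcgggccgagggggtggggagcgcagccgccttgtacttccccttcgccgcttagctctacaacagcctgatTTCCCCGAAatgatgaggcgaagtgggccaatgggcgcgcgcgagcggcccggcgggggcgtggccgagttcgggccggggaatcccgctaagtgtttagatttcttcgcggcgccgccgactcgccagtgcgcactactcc
Gbp2 (chr2:234005477-234005726, plus strand): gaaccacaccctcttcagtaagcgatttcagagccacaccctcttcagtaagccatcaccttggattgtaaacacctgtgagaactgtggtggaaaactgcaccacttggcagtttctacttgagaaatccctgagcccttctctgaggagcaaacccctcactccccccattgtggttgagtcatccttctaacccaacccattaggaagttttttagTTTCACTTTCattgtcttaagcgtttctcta
Ifi47 (chr10:33798494-33798743, plus strand): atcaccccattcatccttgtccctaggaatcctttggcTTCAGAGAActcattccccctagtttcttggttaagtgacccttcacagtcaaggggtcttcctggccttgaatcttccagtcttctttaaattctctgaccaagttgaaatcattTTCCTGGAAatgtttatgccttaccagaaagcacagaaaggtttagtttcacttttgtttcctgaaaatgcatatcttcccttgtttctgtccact
Irf7 (chr1:205800024-205800273, minus strand): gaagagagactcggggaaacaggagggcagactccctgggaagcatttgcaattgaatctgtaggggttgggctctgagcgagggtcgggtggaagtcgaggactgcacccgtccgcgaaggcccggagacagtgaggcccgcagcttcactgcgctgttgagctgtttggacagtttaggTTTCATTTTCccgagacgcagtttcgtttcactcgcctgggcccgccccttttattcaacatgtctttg
Oas1a (chr12:41330216-41330465, plus strand): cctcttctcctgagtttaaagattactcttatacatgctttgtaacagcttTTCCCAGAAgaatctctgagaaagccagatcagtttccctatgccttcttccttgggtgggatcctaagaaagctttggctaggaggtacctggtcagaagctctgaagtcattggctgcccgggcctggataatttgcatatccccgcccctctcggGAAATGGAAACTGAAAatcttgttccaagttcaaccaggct
Ifit3 (chr1:241527076-241527325, plus strand): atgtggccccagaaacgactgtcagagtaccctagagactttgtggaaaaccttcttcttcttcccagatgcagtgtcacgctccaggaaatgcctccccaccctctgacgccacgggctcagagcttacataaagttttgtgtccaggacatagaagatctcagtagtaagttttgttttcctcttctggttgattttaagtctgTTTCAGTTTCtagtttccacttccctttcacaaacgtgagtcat
In these windows, the gamma-activated site of Irf1 begins 142 bases before the gene start and the response element of Gbp2 31 bases before it. Ifi47 has gamma-activated sites at 212 and 96 bases before its start and no response element of these letters. In Irf7 the element begins 69 bases before the start and in Ifit3 44 bases before it, while Oas1a holds overlapping elements that begin at 41 and 35 bases.

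A spacing shared by the windows of Irgm, Igtp and Parp14 was noticed only after the sequences and values had been seen. In each, a gamma-activated site begins 11 bases before a response element on the same reading. Of all 33469 windows, 4 have this arrangement, and the fourth belongs to Irgm2, which was not analysed here. Bst2 and Ifitm3 also hold both patterns close together. In Bst2 the gamma-activated site begins 137 bases before the start and response elements begin at 131 and 125 bases. The site overlaps the first element, and the second follows it in the same order, without overlap and not at a spacing of 11. In Ifitm3 the patterns stand in the reverse order. The stretches around both patterns are given for comparison, with both in capitals.
Irgm (chr10:33742598-33742628, minus strand): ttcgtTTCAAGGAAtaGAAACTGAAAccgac
Igtp (chr10:42874928-42874958, plus strand): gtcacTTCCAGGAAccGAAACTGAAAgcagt
Parp14 (chr11:78408042-78408072, plus strand): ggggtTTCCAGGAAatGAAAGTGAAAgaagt
Bst2 (chr16:18255078-18255109, minus strand): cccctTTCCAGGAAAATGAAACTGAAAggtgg
Ifitm3 (chr1:205541778-205541807, minus strand): ttcagGAAAAGGAAAcTTCTGAGAAccgaa
Of these 5 genes, Irgm, Parp14 and Ifitm3 rose, Bst2 was not called, and the probes of Igtp disagreed, as described with its values.

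**Figure D3:**
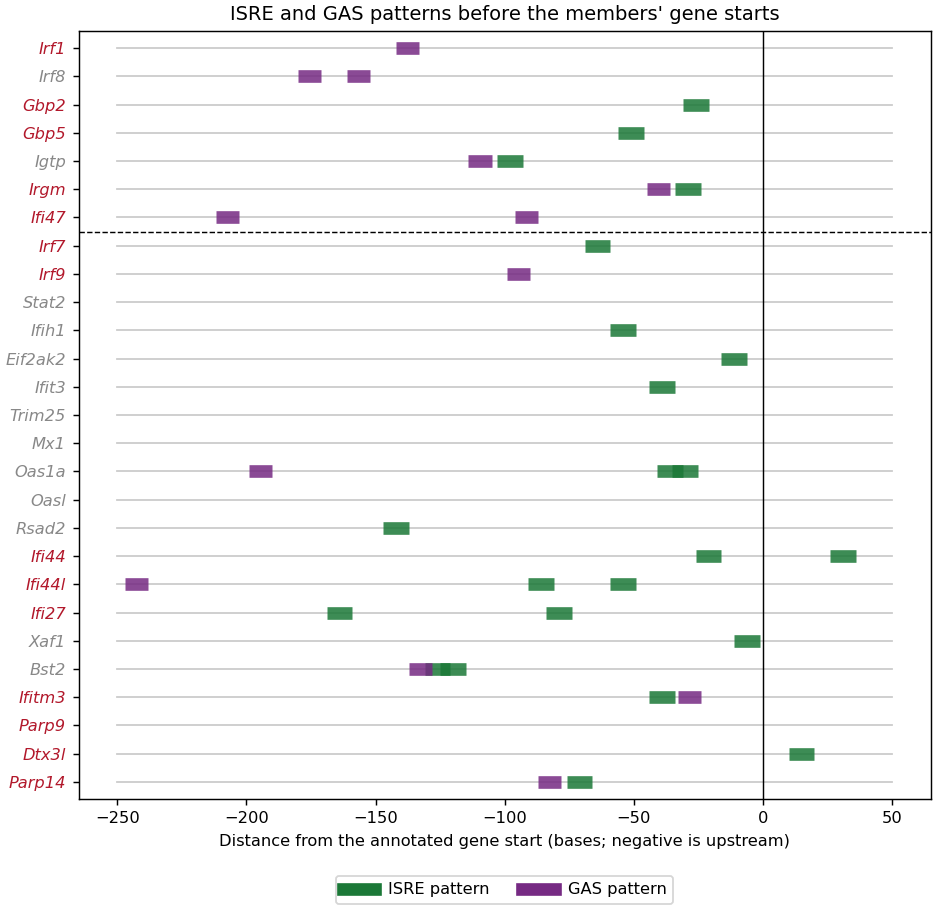
Boxes mark the response element (green) and the gamma-activated site (purple) by distance from the annotated gene start, in bases, for the 27 members with a window. Gene names in red were called higher and those in grey were tested and not called or had no probe (Xaf1), and the type II-leaning genes stand above the dashed line. Most response elements lie within 100 bases before the start, in red and grey genes alike.

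Irf1 is a transcription factor that responds directly to interferon gamma and drives many of its targets. Its signal was -0.71, -0.83, 0.55 and -1.56 in Control and 2.22, 2.66, 3.01 and 2.73 in APL. All APL samples lay above all Control samples, and the Control samples were the more scattered. The log2 fold change was 3.29 ± 0.43 (SE, n = 4 per group), or 9.81-fold, with a limma adjusted p of 0.00138. The gene's other probe also rose, by 2.36 (adjusted p = 0.00975 when every probe was fitted). Irf8, a factor of myeloid cells, differed by 0.66 ± 0.77 and was not called (adjusted p = 0.568).

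Gbp2, a guanylate-binding protein that attacks the vacuoles of intracellular microbes, had the largest fold change of the 33 members tested. It read -1.68, -7.64, -1.92 and -5.80 in Control and 1.501, 1.73, 2.65 and 1.66 in APL. The groups did not overlap, but Control divided into a higher and a lower pair, and the lowest value is the floor set for dim spots. The log2 fold change was 6.14 ± 1.30 (adjusted p = 0.0128 in limma), and 3 of 4 Control arrays were well above background. Its size depends on the background step, since normexp with quantile normalization gave 3.36, still called. Gbp5, a relative that promotes inflammasome assembly, read -3.93, -4.87, -4.41 and -4.99 in Control and -2.76, -1.64, -2.44 and -2.41 in APL. Gbp5 lay higher in every APL sample, and rose by 2.24 ± 0.33 (adjusted p = 0.00249), but by 0.56 with normexp and quantile normalization, still called. With normexp and 75th percentile scaling its difference was 1.05 and the call was lost (adjusted p = 0.155). The other probe of Gbp5 differed by 3.21 with overlapping groups and was not called (adjusted p = 0.101 when every probe was fitted). On that probe 2 of 4 Control arrays were well above background.

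The immunity-related GTPases guard against microbes that live in vacuoles. Irgm, a regulator of the family, read -5.44, -3.73, -4.48 and -5.06 in Control and -0.81, -1.33, -1.22 and -0.83 in APL. The groups stood well apart, and the APL samples were close to each other. Irgm rose by 3.63 ± 0.38, or 12.4-fold, with the smallest adjusted p of the members in limma (0.00045). Its size was 1.63 with normexp and 75th percentile scaling and 1.12 with normexp and quantile normalization, called in both. Ifi47, another member of the family, read -4.93, -5.20, -5.21 and -5.13 in Control and -2.58, -1.92, -3.31 and -2.19 in APL. All of its Control samples sat near -5 and every APL sample lay above them. Ifi47 rose by 2.62 ± 0.31 (adjusted p = 0.000847), but by 0.57 with normexp and quantile normalization, still called. With normexp and 75th percentile scaling its difference was 1.06 and it was not called (adjusted p = 0.191). In the RefSeq annotation Irgm and Ifi47 have 1 protein-coding gene between them, and Gbp5 and Gbp2 have 2.

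Igtp, the third GTPase, has 2 probes of the same accession, and they disagreed. The probe with the higher mean, which the gene rule uses, read 3.75, 3.92, 4.13 and 3.92 in Control and 3.64, 3.85, 3.85 and 3.49 in APL. These groups overlapped, with a difference of -0.22 ± 0.19 (adjusted p = 0.42) that was 0.41 without scaling between arrays. The other probe read -2.99, -3.46, -0.93 and -2.82 in Control and -0.19, 1.17, 0.89 and 1.46 in APL. On that probe every APL sample was higher, by 3.38 ± 0.59 (limma adjusted p = 0.00574 over all probes). With it in place, the median of the type II-leaning members was 3.29 and their distance from the antiviral median 1.95. Which probe measures the Igtp transcript was not tested.

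**Figure D4:**
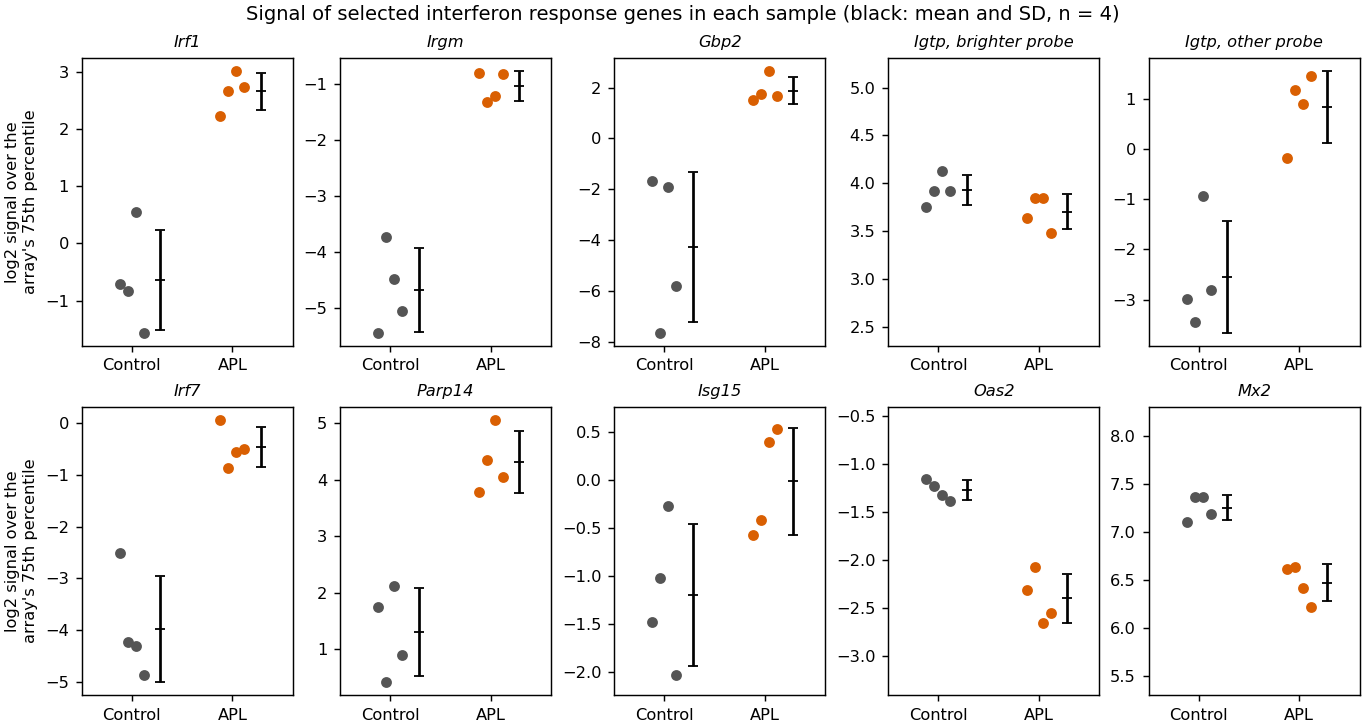
Each panel gives the log2 signal of a probe over its array's 75th percentile in every sample (grey Control, orange APL), with the mean and SD in black (n = 4), and each panel has its own vertical range. Irf1, Irgm, Irf7 and Parp14 separate fully upward, Oas2 and Mx2 fully downward, Isg15 overlaps, and the probes of Igtp differ.

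Among the antiviral members, the transcription factors Irf7 and Irf9 rose. Irf7, the amplifier of type I interferon production, read -2.52, -4.23, -4.31 and -4.88 in Control and 0.06, -0.86, -0.56 and -0.49 in APL. Every APL sample was above the highest Control sample, which stood apart from the other Control samples. Irf7 rose by 3.52 ± 0.50, or 11.5-fold (limma adjusted p = 0.00197), and by 1.86 with normexp and 75th percentile scaling and 1.52 with normexp and quantile normalization, called in both. Irf9, the DNA-binding part of the type I complex, read -1.46, -3.71, -5.15 and -2.39 in Control and -0.55, -0.96, -0.42 and -0.46 in APL. Its APL samples were close together above widely spread Control samples, and it rose by 2.58 ± 0.72 (adjusted p = 0.0358). Without Control replicate 2 or any 1 APL replicate the Irf9 call was lost (adjusted p up to 0.0869), as it was with no detection filter, and its size under those normexp settings was 1.48 and 1.05, called in both. Stat2, the partner of Irf9, read -1.06, -0.66, -0.22 and -1.82 in Control and 0.04, -0.34, -0.08 and -0.14 in APL. APL replicate 2 lay below Control replicate 3, and the difference of 0.81 ± 0.34 was not called (adjusted p = 0.124).

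The antiviral effectors follow by family. Parp9 and Dtx3l form a complex that marks histones and viral proteins with ADP-ribose and ubiquitin. Both rose, as did the related Parp14. Parp9 read -2.59, -7.24, -1.57 and -7.64 in Control and -0.22, 0.21, -0.28 and 0.06 in APL. Its APL samples were nearly level and above every Control sample, of which 2 of 4 were well above background. Parp9 rose by 4.70 ± 1.37 (limma adjusted p = 0.0412), and the call was lost without Control replicate 2 or 4 or any 1 APL replicate (adjusted p up to 0.0945), with the slide as a block (0.0607) and with no detection filter (0.0682). Under normexp its size was 1.86 with 75th percentile scaling and 1.53 with quantile normalization, called in both. Dtx3l, its ubiquitin ligase partner, read -7.56, -7.64, -7.64 and -7.64 in Control, none of them well above background, and -2.79, -4.76, -5.93 and -3.54 in APL, all well above it. As processed here, it was at least 3.27-fold higher in APL, a log2 difference of 1.71. This bound takes the lowest signal well above background on each Control array. Its call (limma adjusted p = 0.00677) came from the fit on floored values, a log2 difference of 3.37. The Control values lay at or next to the floor, with an SD of 0.04, so that p does not measure their spread between samples. Both normexp settings and a floor of 0.02 ended that call (adjusted p up to 0.427) and gave log2 differences below the bound. Those were 0.88 with normexp and 75th percentile scaling, 0.35 with normexp and quantile normalization, and 1.46 with the floor of 0.02. Parp14, a relative that attaches single ADP-ribose units, read 1.76, 0.43, 2.12 and 0.90 in Control and 3.79, 4.34, 5.05 and 4.06 in APL. The groups were clearly apart, Parp14 rose by 3.01 ± 0.44 (adjusted p = 0.00232), and its other probe rose by 3.12 (adjusted p = 0.00961 over all probes). The 3 genes are direct neighbours in the RefSeq annotation.

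Another adjacent pair rose, Ifi44 and Ifi44l, which are known as genes strongly induced by type I interferon. Ifi44 read -3.99, -3.70, -7.64 and -3.38 in Control and -1.76, -1.77, -1.31 and -1.10 in APL. Control replicate 3 was at the floor, and the groups did not overlap with or without it. Ifi44 rose by 3.19 ± 0.89 (limma adjusted p = 0.0354), with 3 of 4 Control arrays well above background. Without Control replicate 1 or any 1 APL replicate it was not called (adjusted p up to 0.090), nor with no detection filter, and under the same normexp settings its size was 1.43 and 0.88, called in both. Ifi44l rose by 2.98 ± 0.89 (adjusted p = 0.0455) with overlapping groups, since Control replicate 2 at -3.51 lay above APL replicate 3 at -3.57. Its call held in 3 of 10 other settings and in 1 of 8 fits without a sample, that without Control replicate 2, and 2 of its 4 Control values were at the floor.

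Ifi27, a small mitochondrial protein induced by type I interferon, read 2.25, 2.21, 3.01 and 3.13 in Control and 3.23, 4.27, 4.47 and 4.68 in APL. The lowest APL sample stood just above the highest Control sample. Ifi27 rose by 1.52 ± 0.38 (limma adjusted p = 0.0258), and was not called without Control replicate 1 or 2 or APL replicate 2, 3 or 4 (up to 0.0697), with median scaling or with normexp and 75th percentile scaling (up to 0.119). Ifitm3, which blocks fusion of viruses with endosomes, read 1.04, 0.97, 0.01 and 0.47 in Control and 2.01, 1.88, 1.66 and 3.003 in APL. The groups did not overlap, and APL replicate 4 was the highest. Ifitm3 rose by 1.51 ± 0.37 (adjusted p = 0.0219), and lost its call without Control replicate 4 (adjusted p = 0.0515) and with normexp and 75th percentile scaling (0.123). Bst2, the tether that holds budding virions at the membrane, differed by 2.18 ± 0.77 with overlapping groups and was not called (adjusted p = 0.0756).

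The Mx and Oas families held the only members that fell. Oas2, which makes the messenger that activates RNase L, read -1.16, -1.23, -1.32 and -1.38 in Control and -2.32, -2.08, -2.67 and -2.55 in APL. Control samples were nearly identical and all APL samples lay below them. Oas2 fell by 1.13 on the log2 scale (SE 0.20, limma adjusted p = 0.00544), or 2.19-fold. Mx2, a dynamin-like GTPase, read 7.10, 7.36, 7.36 and 7.19 in Control and 6.62, 6.64, 6.42 and 6.22 in APL. Every APL sample was below every Control sample, and Mx2 fell by 0.78 (SE 0.19, adjusted p = 0.0211). Both calls depend on the scaling, since the 75th percentile was 1.56 times higher on the APL arrays and without scaling neither was called (adjusted p of 0.0695 for Oas2 and 0.562 for Mx2). Oas2 was also not called with normexp and 75th percentile scaling (0.712), and Mx2 was not called with normexp and quantile normalization, nor without Control replicate 2, APL replicate 3 or APL replicate 4 (up to 0.0549). Mx1, one gene away from Mx2 in the annotation, was also lower in every APL sample, by -0.68 ± 0.28, and was not called (adjusted p = 0.119). Oas1a differed by 0.47 ± 0.95 (adjusted p = 0.751) and Oasl, a sensor partner, by 1.77 ± 1.08 (adjusted p = 0.272), both with overlapping groups.

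Of the Isg15 and Ifit genes tested none was called. Isg15, the ubiquitin-like modifier, read -1.48, -1.02, -0.27 and -2.03 in Control and -0.58, -0.42, 0.40 and 0.53 in APL. The lower pair of APL samples fell within the Control range. Its difference was 1.18 ± 0.43 (limma adjusted p = 0.0855), and it was called without Control replicate 3 (adjusted p = 0.0374). Usp18, which removes Isg15 from proteins, differed by 0.18 ± 1.04 (0.913) and Trim25, the ubiquitin ligase of the RIG-I path, by 0.64 ± 0.40 (0.287). Ifit2 differed by 1.66 ± 0.64 (adjusted p = 0.0974, called without Control replicate 4 at 0.0227) and Ifit3 by 0.50 ± 1.35 (0.813). Without scaling between arrays, limma called Isg15 (adjusted p = 0.0161), Ifit2 (0.0227) and Trim25 (0.0449) higher, so these results also depend on the scaling. Over all 21416 genes, 5883 were called higher in that setting, against 2554 as reported. Rsad2, or viperin, which makes a chain-terminating nucleotide, differed by 0.90 ± 1.17 (adjusted p = 0.61) and ranged in APL from -3.28 to 2.07.

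None of the 4 nucleic acid sensors tested was called by limma. Ifih1, the long RNA sensor MDA5, differed by 2.48 ± 1.11 (adjusted p = 0.144) with Control values from -6.77 to -0.89. Dhx58, the related LGP2, differed by 1.15 ± 0.56 (adjusted p = 0.174). Eif2ak2, the kinase PKR that halts translation, differed by 1.08 ± 0.85 (adjusted p = 0.391), and by 2.33 on its other probe (0.0551). Zbp1, a sensor of left-handed nucleic acid, had a negative difference of -1.25 ± 0.53 (adjusted p = 0.125). At raw p under 0.05 the count over all members was 22 of 33, beside 7935 of the 21416 genes tested.

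The members varied more between Control samples than between APL samples. Their median SD was 0.949 in Control and 0.546 in APL, and 23 of 33 had the larger SD in Control. Over all genes tested the medians were 0.506 and 0.443, and 55.8% had the larger SD in Control. All 4 Control arrays were well above background for 21 members and all 4 APL arrays for 30. The median over the antiviral members, relative to each gene's Control mean, ran from 0.84 to 1.94 across APL samples and from -0.41 to 0.36 across Control samples. For the type II-leaning members it ran from 2.11 to 3.20 in APL and from -0.44 to 0.20 in Control. Neither class overlapped between groups in this median.

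Ligands, receptors and other genes of the pathway were followed in a list of 91, of which 68 had a probe and 61 were tested. Of these, 18 rose and 1 fell, with a median log2 fold change of 0.73, and the shares over all genes were those given above. Of the 19 called, 13 were called in all 8 fits without a sample. Of 10 interferon ligands in the list, 4 had no probe, 4 were too dim to test and 2 were tested. Neither of those 2 was called. Ifnb1, the first type I interferon made on infection, read -3.68, -3.77, -3.79 and -3.38 in Control and -3.70, -3.57, -3.98 and -3.94 in APL, a difference of -0.14 ± 0.20 (limma adjusted p = 0.635). Ifna4 differed by -0.63 ± 0.24 (adjusted p = 0.0966). The probe of Ifng, which encodes interferon gamma, was not well above background on any array (0 of 8).

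Of 5 receptor genes tested, 2 rose. Ifnlr1, the specific chain of the type III receptor, read -4.20, -5.25, -4.13 and -4.05 in Control and -1.77, -1.19, -2.86 and -2.37 in APL, with no overlap. It rose by 2.36 ± 0.43 (limma adjusted p = 0.00637), a call lost with normexp and 75th percentile scaling (0.213). Ifngr2, the signalling chain of the interferon gamma receptor, rose by 2.21 ± 0.50 (adjusted p = 0.0166), and every APL sample was above every Control sample. Of 4 kinases and Stats tested, Stat3, best known for interleukin-6 signals, rose by 1.76 ± 0.33 (adjusted p = 0.007).

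Of 9 genes that sense nucleic acids upstream of interferon, 3 rose. They were Tlr3, the endosomal receptor of double-stranded RNA (2.32 ± 0.53, limma adjusted p = 0.0179), Ikbke, a kinase of Irf3 and Irf7 (2.27 ± 0.43, 0.00806), and Sting1, the adaptor of cytosolic DNA sensing (1.87 ± 0.24, 0.00128). Of 5 inhibitors tested, 2 rose, the feedback inhibitor Socs3 by 1.83 ± 0.41 (0.0165) and the Stat phosphatase Ptpn2 by 1.34 ± 0.32 (0.0219). Socs1, the other feedback inhibitor, differed by -0.16 ± 0.23 (adjusted p = 0.638). Tlr3 lost its call without APL replicate 4 (0.0521), and Ptpn2 without Control replicate 2 or 3 or APL replicate 1, 2 or 4 (up to 0.0619) and with normexp and 75th percentile scaling (0.114).

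Other type II-leaning targets, 10 tested, held 4 that rose and 1 that fell. Psmb9, a subunit of the immunoproteasome, read -2.10, -3.86, -1.93 and -1.84 in Control and 1.63, 2.20, 2.46 and 2.55 in APL. The groups were widely apart, and Psmb9 rose by 4.64 ± 0.48, or 25-fold (limma adjusted p = 0.000442). Its partner Psmb8 rose by 3.23 ± 0.43 (0.0014) and Cxcl10, a chemokine for T cells, by 2.80 ± 0.39 (0.00191). Cxcl9, a ligand of the same receptor, differed by -0.81 ± 0.45 (adjusted p = 0.231). Cxcl11, the third ligand, read 1.31, 1.14, 0.65 and -0.71 in Control and -0.88, -0.71, -1.06 and -1.22 in APL. It fell by 1.56 (SE 0.44, adjusted p = 0.0361), with Control replicate 4 among the APL samples, and was called in only 1 of 8 fits without a sample, that without Control replicate 4, and neither without scaling nor with normexp and 75th percentile scaling (adjusted p up to 0.127), nor with no detection filter. Over the 11 settings with all samples the change was as low as 0.74 for Tlr3, 1.39 for Psmb8 and 1.40 for Cxcl10, each called in all of them. Of 23 other antiviral targets tested, 5 rose, with the largest changes in Lgals3bp, a secreted glycoprotein (4.20 ± 0.56, 0.00145), Rtp4, a chaperone that restrains flaviviruses (3.42 ± 0.34, 0.0004), and Isg20, an exonuclease (2.23 ± 0.62, 0.0357). Isg20 was not called without Control replicate 2 or 3 or any 1 APL replicate (up to 0.0847). Nor was it called with no detection filter, with the slide as a block or with the replicate number as a block.

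**Figure D5:**
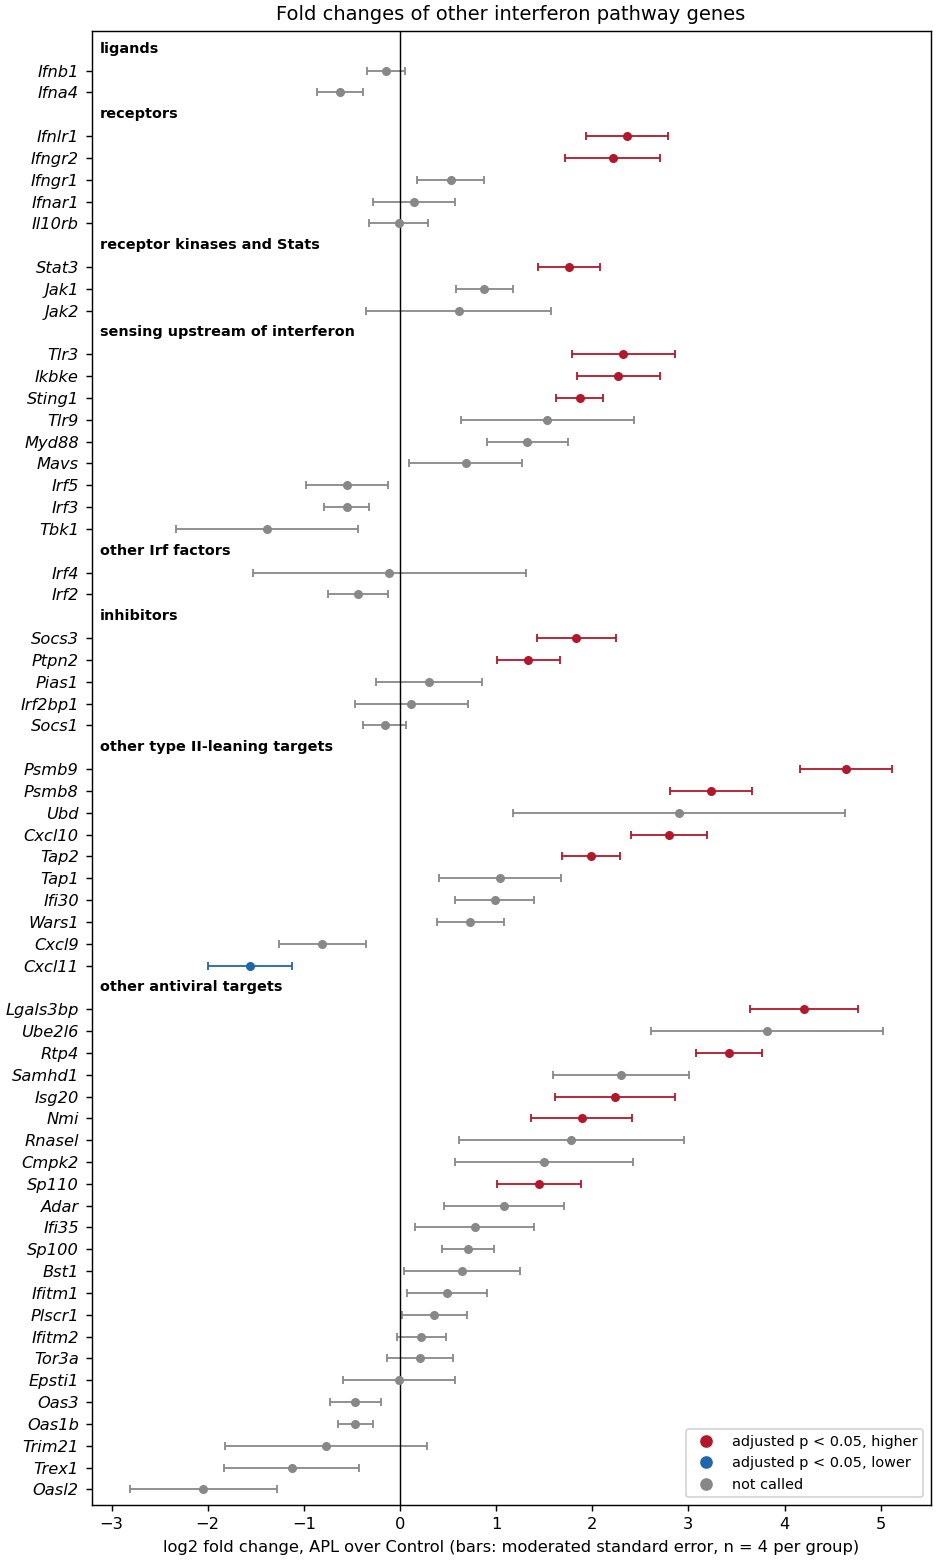
Points are log2 fold changes of APL over Control for other pathway genes tested, by role, and bars are moderated standard errors (n = 4 per group). The 2 ligands tested lie at or below 0. Psmb9 at 4.64 and Lgals3bp at 4.20 lead the targets that rose, and Cxcl11 at -1.56 is the only gene called lower.

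Markers of the cell types that a kidney sample can hold were read on the same arrays. Of the markers that define kidney, 8 of 8 for the proximal tubule and 5 of 5 for podocytes passed the filter. Of 7 T and NK cell markers tested none was called, and 7 more, including Cd3e, Cd8a and Ncr1, were too dim to test. Their summed signal over the 75th percentile was 0.870 to 1.43 in Control and 0.697 to 1.43 in APL. That sum rests mostly on Cd4 and Nkg7, with Control means of -1.64 and -1.53 on the log2 scale. Those of Cd3d and Cd3g were -3.64 and -6.17, so the sum says little about them. Of 10 macrophage and monocyte markers tested 5 rose, among them Cd68 and Tyrobp, and their summed signal was 16.5 to 20.3 in Control and 31.9 to 47.8 in APL. Csf1r and Adgre1 of that list were not called, and Itgam, Mrc1 and Cd163 were too dim to test. Of 6 endothelial markers 5 fell, with sums of 3.56 to 6.96 in Control and 0.386 to 0.624 in APL. Among proximal tubule markers 5 fell and 2 rose, with sums of 287.7 to 354.2 and 35.1 to 51.1. The part of these cell types in the changes of the interferon response genes was not tested.

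On all arrays, 74.0% to 77.3% of probes were well above background in Control and 80.0% to 81.9% in APL. The 75th percentile of the signal was 291 ± 18.0 in Control and 455 ± 53.0 in APL (SD, n = 4, exact permutation p = 0.0286, two-sided, the smallest that 4 against 4 allows). The percentile scaling removes that difference from every value above. Without it the median over all genes moved by 0.63 and 83.7% of calls were higher, with median scaling it moved by -0.28 and 31.1% were higher, and 50.8% were higher as reported.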

How the data were processed

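The members and lists were chosen with earlier results of these data known. Kidney total RNA of 4 Control and 4 APL samples was hybridised to single-colour Agilent arrays. Per the file headers, the authors deposited scanner output of Feature Extraction 10.5.1.1 (scans at 5 micrometres, annotation of rn4), whose processed signal is an intensity after background subtraction. The deposited flags for spots well above background were used as a filter. The authors' value table holds log2 values, and comparison with the scanner files (correlation 0.9992 to 0.9997 across probes) shows log2 of the processed signal over the 75th percentile, centred on each probe. Its column medians were 0.0338, 0.0662, 0.0771 and 0.00597 for Control and -0.0724, 0.0186, -0.136 and -0.0445 for APL, and the table served as an alternative. With each probe centred on its median, the scanner values lay within 0.01 of that table for 91.4% to 94.9% of probes per array. Centring on the mean was not tried.

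Control spots and non-uniform spots were left out and spots of a probe averaged. Each signal was divided by its array's 75th percentile, floored at 0.005 and put on the log2 scale. Of 30367 probes, 18643 had 1 gene symbol through their accession and 11724 had none. Probes well above background on at least 4 arrays were kept, and the probe with the highest mean stood for its gene. Dim genes have only a bound. Models were fitted with limma 3.58.1 in R 4.3.3 (lmFit, eBayes, Benjamini-Hochberg over all genes tested, threshold 0.05). On simulated data the procedure recovered 42% of genes with a log2 change of 2 and 77% with a change of 4. A gene not called can therefore have changed. In the simulation 100 genes changed at each size, against 5026 called here, so these shares need not hold for the data. Intervals rest on 4 arrays a group.

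All members are named. Those called without overlap, plus Irf1, Irf7, Stat2, Isg15 and Gbp2, are given by sample. Of each role in the pathway list, up to 3 called genes in each direction with the largest fold change are named, plus Ifng and Ifnb1; other pathway genes named were chosen after their values were seen, and some genes that this rule names are not reported here. Classes were assigned from general knowledge. Alternatives were normexp (offset 50) with 75th percentile or quantile scaling, no scaling, median scaling, a floor of 0.02, no filter or a filter on all 8 arrays, the mean of probes, the authors' table, slide and replicate blocks, each slide alone and each sample left out. Probe by probe fits and the second Igtp probe were added after the data were seen. Samples of the same number share a slide, and their deviations were correlated at -0.015 to 0.048. Samples of different numbers ran from -0.083 to 0.091. These correlations cannot tell whether same-numbered samples were paired, and no pairing was used. Aligned probe positions were not used here.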

Additional observations from a re-analysis of the deposited data

Results flagged for a closer look

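Among 66 groups of 4 values, 7 held a sample that Dixon's criterion sets apart, where chance sets apart about 1 in 20 groups. On the log2 scale over the 75th percentile, Irf8 was low in APL replicate 3 at -6.234, with the other APL samples between -4.25 and -3.848. Dhx58 was low in Control replicate 2 at -3.581, with the others between -1.455 and -1.119. Eif2ak2 was low in APL replicate 1 at -3.262, against -1.497 to -1.421. Oas1a was low in Control replicate 4 at -6.391, against -4.882 to -4.705. Oasl was high in Control replicate 1 at -3.804, against -7.582 to -7.312. Ifi44 was low in Control replicate 3 at -7.644, the floor, against -3.99 to -3.376. Dtx3l stood at -7.563 in Control replicate 1 with the others at the floor of -7.644, and none of those spots was well above background, so their order carries no meaning.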

How the results depend on the processing

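Of 16 called members, 5 (Irf1, Gbp2, Irgm, Irf7 and Parp14) were called in every alternative they could enter and in all 8 fits without a sample, and 9 were called in all 8 of those fits. No called member changed sign, and all 16 kept their sign on each slide. Where a cause is not named below, it was not tested. With normexp and 75th percentile scaling, 2013 genes were called, 1040 higher and 973 lower. Of the members 8 were higher and 1 lower, and 0 other pathway genes were lower. The medians were 0.90 over members, 1.06 over type II-leaning and 0.86 over antiviral members, 0.20 apart. Over all genes the median was 0.36 in that setting, and Zbp1 turned to 0.31. With normexp and quantile normalization, 1 member and 2 other pathway genes were lower, beside 2561 of all genes. The medians were 0.56, 0.57 and 0.51, 0.062 apart, against -0.04 over all genes, and Ifit3 turned to -0.20. Without scaling, 20 members were higher and 0 lower, with Stat2, Dhx58, Ifit2, Isg15, Trim25 and Bst2 added to those called. Over all 21416 genes, 5883 were called higher and 1143 lower in that setting, so the shift upward was general. There 29 other pathway genes were higher and 0 lower. The medians were 2.15, 3.26 and 1.99, against 0.60 over all genes, and Igtp turned to 0.41. Median scaling called 3 other pathway genes lower, beside 3849 of all genes, and put Usp18 at -0.034. A floor of 0.02 put Ifit3 at -0.17. Requiring all 8 arrays above background, which tests 21 members, left 9 higher, beside 1988 of 17536 genes. The mean of kept probes put Igtp at 1.58 and its other probe at 3.38, and with that probe the type II-leaning median was 3.29, or 1.95 above the antiviral one. On slide 1 that distance was 1.63, with Usp18 at -1.61 and Oas1a at -1.40. On slide 2 it was 0.61, the medians were 1.97 over members and 1.81 over antiviral members, and Ifit3, Trim25 and Rsad2 were at -0.0068, -0.067 and -0.032. With the replicate number as a block, though no pairing of these samples is known, 3258 genes, 9 members higher and 1 lower were called. Irf9, Ifi44, Ifi44l, Parp9, Ifitm3 and Mx2 lost their calls with that block. Leaving out each sample in turn called 1606 to 2204 of all genes higher and 1777 to 2019 lower. It gave 9 to 14 members higher, 1 to 2 lower, 0 to 1 other pathway genes lower and a distance of 1.099 to 1.61. The count of members higher was 9 without APL replicate 2, 3 or 4. In those fits Irf8 ran from -0.0023 to 1.20, Ifit3 from -0.55 to 1.34, Usp18 from -0.61 to 0.89, Oas1a from -0.094 to 1.37 and Rsad2 from -0.055 to 1.73. Signal over background limits Ifit2, Ifit3, Usp18, Oasl, Parp9, Ifi44l and Dtx3l in Control, where 2 or fewer arrays were well above it.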
